A study of Mus musculus with 3 samples.

Results

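The 6 genes described here are secreted signals of fibroblasts: the chemokines Ccl2, Ccl7, Cxcl1, Cxcl5 and Cxcl12, and the cytokine Il6. They were chosen by name and read as 6 rows of the 50507 rows of a CEL-Seq2 count table, over every library. The cells were wild-type BL6 mouse embryonic fibroblasts (MEFs) at passage 2, and all groups, controls included, carried lentiviruses with rtTA and a doxycycline-inducible cassette of Oct4, Sox2, Klf4 and c-Myc (OSKM). The time course of 7 groups (day 0 to day 6, 3 libraries each) held cells that were re-plated without transfection. From day 0 on, all cells were given a medium with LIF, 50 ug/mL ascorbic acid, 3 uM chiron, 0.25 uM Alk5 inhibitor and 2 ug/mL doxycycline, so day 0 is the point at which this medium was added and later days differ from it in all of these agents at the same time. The screen, collected on day 6, held cells reverse transfected the day before induction with 40 nM of pooled siRNAs: 33 siRNA groups (98 libraries), the non-targeting control nt (3 libraries) and the Mock control without siRNA (5 libraries). Each GEO sample is a sequencing pool that held 1 replicate of the conditions, so the pool and the replicate number are the same thing. Every pool held 2 Mock columns of the same name, each counted as a library, so the 5 Mock libraries used come from 3 pools, and nothing in the labels says whether the 2 of a pool were separate cultures. Nothing in the labels ties the replicates to separate litters or isolations, so p-values measure the spread between these libraries, which may be technical.

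Chemokines are small secreted proteins that draw leukocytes along a gradient. Ccl2 and Ccl7 are CC ligands that recruit monocytes, Cxcl1 and Cxcl5 are CXC ligands that recruit neutrophils, and Cxcl12 is a stromal ligand that retains blood stem cells in the marrow through its receptor Cxcr4. Il6 signals through the shared receptor chain Il6st, the kinase Jak1 and the transcription factor Stat3, a route that LIF in the medium uses as well. Cultured fibroblasts make all of these signals, and inflammatory stimuli induce several of them through the transcription factor NF-kB.

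In the GENCODE annotation of GRCm38 the genes lie on 3 chromosomes. Ccl2 (chr11:82035571-82037453) and Ccl7 (chr11:82045712-82047525) are neighbours, with 8258 bases and no annotated gene between them. Cxcl5 (chr5:90759360-90761624) and Cxcl1 (chr5:90891241-90893115) are separated by 129616 bases that hold 7 annotated genes, other CXC ligands among them. Cxcl12 (chr6:117168535-117181367) and Il6 (chr5:30013114-30019981) stand alone. All 6 are protein-coding genes on the plus strand, and no exon of theirs overlaps an exon of another annotated gene. RefSeq promoters of GRCm38.p6 were at hand for 3 of the 6. The bases just before the start are shown because Il6 and Cxcl1 carry a kappaB match there and Cxcl12 does not. Without promoters for Ccl2, Ccl7 and Cxcl5, any link of a match to the counts was not tested. Capitals mark matches on either strand to the kappaB motif bound by NF-kB (GGGA, any base, TTTCC) or to GGGCGG (the GC box).
Cxcl1, chr5:90891095-90891240, plus strand: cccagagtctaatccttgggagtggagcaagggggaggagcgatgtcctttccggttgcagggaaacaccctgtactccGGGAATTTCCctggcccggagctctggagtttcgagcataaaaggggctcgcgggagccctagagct
Il6, chr5:30012964-30013113, plus strand: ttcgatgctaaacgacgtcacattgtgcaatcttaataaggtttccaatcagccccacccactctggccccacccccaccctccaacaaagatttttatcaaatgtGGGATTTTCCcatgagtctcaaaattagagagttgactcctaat
Cxcl12, chr6:117168385-117168534, plus strand: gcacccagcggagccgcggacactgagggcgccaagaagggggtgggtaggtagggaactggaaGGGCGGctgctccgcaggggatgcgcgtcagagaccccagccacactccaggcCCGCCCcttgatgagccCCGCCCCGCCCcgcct
Over 250 bases before the start, the kappaB motif was found in 0.356% and GGGCGG in 32.7% of 32851 promoters. A match is a string of letters and not a measured binding site.

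Of 129 libraries, the 127 that both deposited tables hold were used, with 29656 to 235292 counts each. The pool of replicate 3 was the deepest, with a median of 127079 counts per library against 64227 in replicate 1 and 63122 in replicate 2. Levels are given as CPM (counts of the gene per 1000000 counts of all 3013 tested genes, after TMM scaling). Over the 127 libraries Ccl7 had 2278 counts, Cxcl5 had 2006, Cxcl12 had 263, Ccl2 had 215, Cxcl1 had 81 and Il6 had 5. Ccl2, Ccl7, Cxcl5 and Cxcl12 passed the filter on low counts, while Cxcl1 and Il6 were tested in a second fit that added genes under it. Ccl2 and Cxcl12 passed the filter only through their day 0 libraries. All 13 fibroblast markers were detected on day 0, with a summed level between 6384 and 7962 CPM. Of 10 myeloid markers, 5 had no count on day 0 (Csf1r, Itgam, Tyrobp, Cd14 and Ptprc), while Lyz2 had 31 counts, Fcer1g had 2 and Cd68, Adgre1 and Laptm5 had 1 each, and of the endothelial genes only Emcn did, with 1 count.

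Over the time course, Ccl2, Ccl7, Cxcl5 and Cxcl12 were highest on day 0 and fell within 1 day of the medium with doxycycline. They then took different courses, and stayed below day 0 in the mean on days 2 to 6. A test of any difference between days (edgeR, 42.5% of all tested genes called) called 5 of the 6 genes, all but Il6.

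Ccl2, the main monocyte attractant of the set, stood at 308, 254 and 240 CPM in replicates 1, 2 and 3 on day 0 and at 22.9, 12.2 and 34.2 CPM on day 1. The levels on day 2 were 36.7, 45.5 and 109 CPM, and those on day 3 were 87.4, 72.3 and 70.4 CPM. No library of days 1 to 6 reached any day 0 library. On day 1 Ccl2 fell by 3.37 (SE 0.68) on the log2 scale, with an adjusted p of 8.68e-05 from edgeR's quasi-likelihood test. The change on day 3 was -1.77 (SE 0.55, adjusted p = 0.0196). On day 4 and on day 5 the 3 libraries held 1 count in all, against 56 counts on day 0. By summed counts Ccl2 was then 84.2 times lower on day 4 than on day 0, with an exact 95% interval from 14.5 to 3380 that covers counting error only. Day 6 had 29.7, 36.1 and 0 CPM.

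Ccl7, the neighbour of Ccl2 and also a monocyte attractant, kept a sizable level throughout. It had 616, 656 and 1589 CPM on day 0, 183, 110 and 216 CPM on day 1, 490, 217 and 809 CPM on day 3, and 341, 72.3 and 143 CPM on day 6. The replicate 3 library of day 3 lay above 2 libraries of day 0, so these groups overlapped, while those of days 1 and 6 did not reach day 0. Against day 0 it fell by 2.55 (SE 0.28, adjusted p = 2.22e-14, edgeR) on the log2 scale on day 1 and by 2.49 (SE 0.27, adjusted p = 2.53e-15) on day 6. Day 3 was its smallest change, -0.91 (SE 0.23, adjusted p = 0.00184).

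Cxcl5, a neutrophil attractant, was higher again on days 2 and 3 than on day 1 in its values. Its levels were 903, 953 and 1134 CPM on day 0 and 252, 147 and 353 CPM on day 1. They were 612, 531 and 574 CPM on day 2 and 490, 416 and 1100 CPM on day 3, when replicate 3 alone reached the day 0 range. On day 4 they were 325, 182 and 268 CPM, on day 5 they were 114, 146 and 200 CPM, and on day 6 they were 252, 271 and 314 CPM. The fitted change against day 0 was -2.02 (SE 0.28, adjusted p = 1.33e-09, edgeR) on day 1 and -1.85 (SE 0.26, adjusted p = 1.45e-09) on day 6. On day 3 it was -0.53 (SE 0.23, adjusted p = 0.137) and did not pass the test.

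Cxcl12, the stromal ligand, had 205, 212 and 174 CPM on day 0 and 0, 24.4 and 11.4 CPM on day 1. It had 87.4, 36.1 and 35.2 CPM on day 3 and 0, 54.2 and 34.1 CPM on day 6. All libraries of days 1 to 6 lay below those of day 0. It fell by 3.63 (SE 0.77, adjusted p = 0.000175, edgeR) on the log2 scale on day 1 and by 2.65 (SE 0.64, adjusted p = 0.000585) on day 6. Day 1 rests on 3 counts against 41, a level 13.4 times lower by summed counts (exact 95% interval 4.29 to 67.9).

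**Figure D1:**
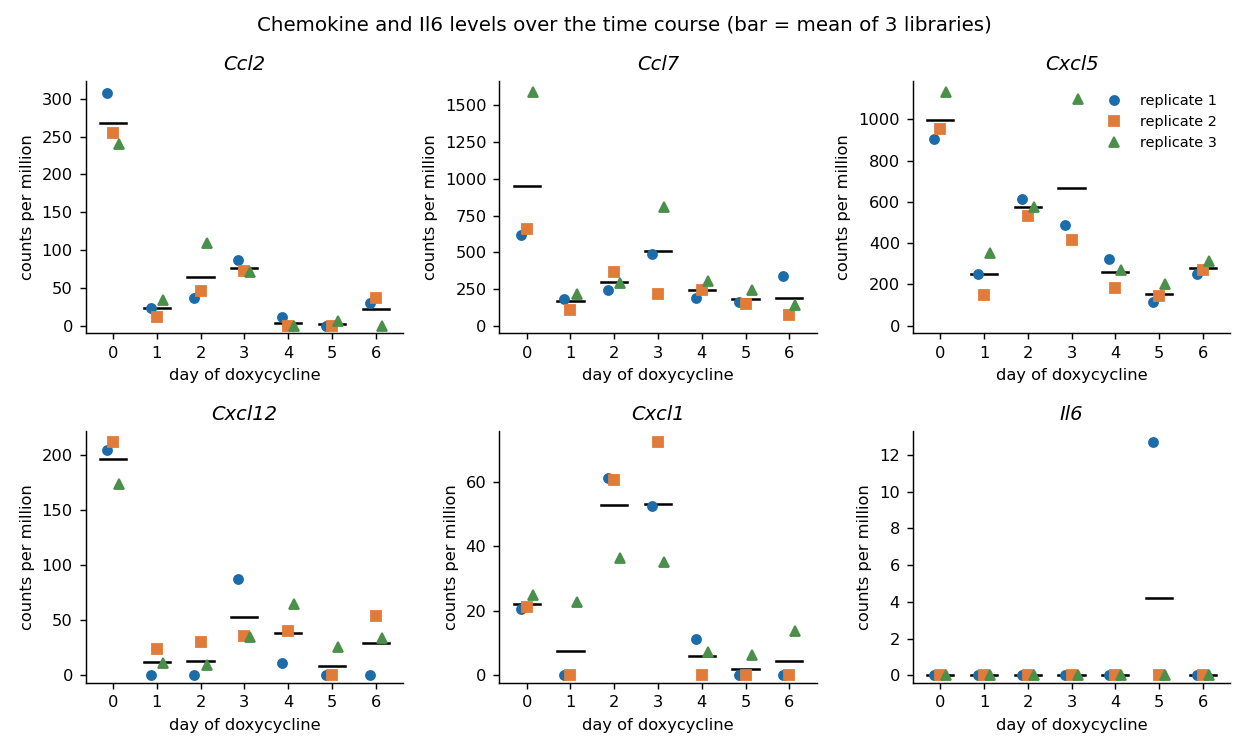
CPM (vertical axis) of the 6 genes by day of doxycycline (horizontal axis); points are single libraries by replicate and bars are means of 3. Ccl2 and Cxcl12 libraries of days 1 to 6 all sit below those of day 0, Cxcl5 comes back to between 416 and 1100 on day 3, and Il6 has 1 library above 0.

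Cxcl1, the second neutrophil attractant, had its highest values on days 2 and 3. It was detected at 20.5, 21.2 and 24.8 CPM on day 0 and 0, 0 and 22.8 CPM on day 1. The levels on day 2 were 61.2, 60.7 and 36.5 CPM (13 counts in all) and those on day 3 were 52.5, 72.3 and 35.2 CPM (11 counts). All 6 libraries of these days lay above every library of day 0, yet no single day passed the test against day 0, with an adjusted p of 0.488 on day 2 and 0.546 on day 3 (edgeR). Day 6 had 0, 0 and 13.6 CPM. Il6 had 1 count in the 21 time course libraries, on day 5, where 3 counts over the time course would be 1.65 CPM, so any change of Il6 was not detectable at this depth.

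Against day 0, edgeR called 4 of the 6 genes on day 1 (9.89% of all tested genes called), 4 on day 2 (11.6%), 3 on day 3 (10.9%), 4 on day 4 (18.7%), 4 on day 5 (31.9%) and 4 on day 6 (22.2%), all of them lower. Ccl2 and Cxcl12 entered the main fit only through their high day 0 libraries. Their falls from day 0 are thus not on equal terms with these shares. The 4 calls of days 1, 5 and 6 held for the same genes in every alternative run. On day 2, the Ccl2 call was lost in 4 of 10 alternatives (adjusted p up to 0.193), among them without replicate 1 or 2, and the Cxcl5 call in 5 of 10 (up to 0.607), among them without replicate 2 or 3. The Cxcl12 call of day 4 was lost without replicate 1 (0.0781) or 2 (0.0558). On day 3, DESeq2 called 2 of the 6 and limma on the deposited log2 values called 0 (3 at an unadjusted p under 0.05). Over the 10 alternatives the day 3 calls were lost in 6 for Ccl2 (adjusted p up to 0.146), in 5 for Ccl7 (up to 0.147) and in 4 for Cxcl12 (up to 0.23). These include no filter on low counts for all 3 genes, any one replicate left out for Ccl2, and replicate 2 or 3 left out for Ccl7 and Cxcl12.

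**Figure D2:**
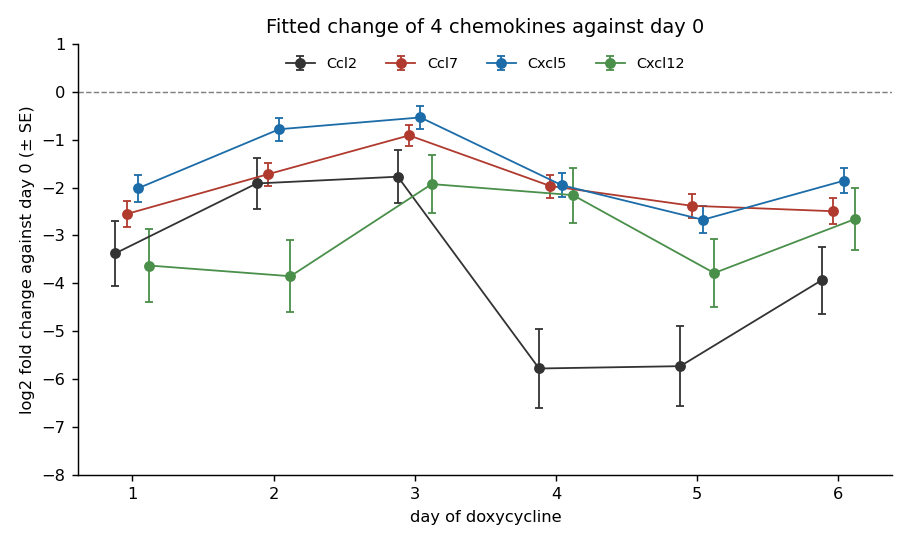
Fitted log2 fold change against day 0 (vertical axis, bars are the SE) of Ccl2, Ccl7, Cxcl5 and Cxcl12 by day of doxycycline. The values of Ccl7 and Cxcl5 come closest to 0 on day 3, at -0.91 and -0.53, and return to -2.49 and -1.85 by day 6.

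Neighbouring days were compared after the values above had been seen. From day 1 to day 2 only Cxcl5 passed the test (1 of 6, 4.81% of all tested genes called), with a rise of 1.23 (SE 0.29, adjusted p = 0.00232, edgeR) on the log2 scale. Without replicate 2 this call was lost (adjusted p = 0.0846). From day 2 to day 3 edgeR called 0 of the 6 (2.82% of all tested genes called, 2 of the 6 at an unadjusted p under 0.05), DESeq2 called 1 and limma called 0. From day 3 to day 4, 3 of the 6 fell (11.9% called): Ccl2 by 4.01 (SE 1.02, adjusted p = 0.00278), Cxcl5 by 1.41 (SE 0.26, adjusted p = 1.43e-05) and Ccl7 by 1.06 (SE 0.26, adjusted p = 0.00176). Without replicate 3, the deepest pool, none of these 3 passed, and their adjusted p-values lay between 0.081 and 0.298. The Ccl7 libraries of both days overlapped, and over 10 alternatives its call was lost in 4 (adjusted p up to 0.329) and that of Cxcl5 in 2 (up to 0.156). From day 4 to day 5 (4.78% called) and from day 5 to day 6 (7.87% called), edgeR called 0 of the 6, with 1 at an unadjusted p under 0.05 each time, and DESeq2 and limma called 0.

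The mean of days 4 to 6 was then set against the mean of days 1 to 3. Here 4 of the 6 were lower (19.2% of all tested genes called). Ccl2 fell by 2.80 (SE 0.64, adjusted p = 0.000374, edgeR) on the log2 scale, Cxcl1 by 2.14 (SE 0.78, adjusted p = 0.0387), Cxcl5 by 1.05 (SE 0.17, adjusted p = 2.83e-07) and Ccl7 by 0.55 (SE 0.18, adjusted p = 0.0183). The Cxcl12 value was 0.27 (SE 0.56, adjusted p = 0.792). Of these 4, Cxcl5 alone passed without replicate 3, Ccl2 and Cxcl5 passed without replicate 2, and Cxcl1 was lost without any one of the replicates. Without the filter on low counts Ccl7 (0.573) and Cxcl1 (0.16) were lost.

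Other genes of these pathways were followed in lists. Of 30 other chemokine ligands, 24 had a count and none passed the filter on low counts. In the second fit 2 of the 24 differed between days (42.5% of all tested genes did in the main fit), Ccl8, a monocyte attractant of the same cluster as Ccl2 and Ccl7, and Cxcl16, a membrane-bound ligand. Ccl8 had 3 counts on day 0, 2 on day 1, 16 on day 2, 29 on day 3 and 3 on day 4, which is 105, 108 and 150 CPM in the 3 libraries of day 3. Its change on day 3 was 3.02 (SE 0.84, adjusted p = 0.00682, edgeR, in a comparison that called 10.9% of all tested genes) on the log2 scale. All 3 libraries of day 3 lay above those of day 0. Of 18 chemokine receptors and scavengers, 14 had a count and edgeR called 0 between days, beside the same 42.5% (0 at an unadjusted p under 0.05, and 0 by limma for the 1 gene it could test).

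On day 6 against day 0, where 22.2% of all tested genes were called, the NF-kB list had 2 lower of 3 that passed the filter and 0 of 23 below it, with a median log2 change of -1.53 over the 3 beside 0.05 over all tested genes. Ptgs2, the inducible cyclooxygenase, went from 104 ± 54.3 to 15.9 ± 15.0 CPM (SD, n = 3) and fell by 3.19 (SE 0.81, adjusted p = 0.00121, edgeR) on the log2 scale, from 27 counts to 3. Nfkbiz, a nuclear co-regulator of NF-kB, fell by 1.53 (SE 0.59, adjusted p = 0.044). Of 5 factors of cytokine mRNA decay that passed the filter, 1 was lower: Zfp36l1, which binds AU-rich elements, fell by 1.56 (SE 0.42, adjusted p = 0.00257), while the list's median was 0.21. Among 4 other cytokines and cytokine receptors that passed, Csf1, the macrophage growth factor, fell by 2.12 (SE 0.47, adjusted p = 0.000156) and Il1rl1, the receptor of interleukin 33, fell by 1.79 (SE 0.31, adjusted p = 1.05e-06). Kitl, the ligand of the receptor Kit, rose by 2.40 (SE 0.72, adjusted p = 0.00719), and the list's median was -0.42. In the IL-6 list, 1 of 4 that passed the filter was higher and 1 of 20 below it, with a median of -0.43 over the 4. They were Cebpd, a transcription factor induced through Stat3 (1.36, SE 0.48, adjusted p = 0.0283), and the receptor Il6ra (2.58, SE 0.96, adjusted p = 0.0386, from 2 counts on day 0).

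Cell type markers moved over the same days. The summed level of the 13 fibroblast markers went from between 6384 and 7962 CPM on day 0 to between 3438 and 4105 on day 1 and between 2783 and 3680 on day 6. Between day 0 and day 6 (22.2% of all tested genes called), 6 of the 10 that passed the filter were lower and 2 were higher (Dcn and Lum). Postn, a matrix protein, went from 492.6, 592.9 and 488.3 CPM to 29.7, 18.1 and 13.6 CPM. The 8 epithelial markers summed to between 20.5 and 24.8 CPM on day 0, when Cdh1 and Epcam had no count, and to between 74.2 and 253 CPM on day 6. The 10 myeloid markers summed to between 141 and 246 CPM on day 0, of which Lyz2 held 31 counts, and to between 18.1 and 89.0 CPM on day 6. The part of these cells in the chemokine changes was not tested, and in bulk RNA fewer cells of a type and less RNA per cell cannot be told apart.

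On day 6, the transfected controls can be compared with untransfected cells. Cxcl5 had 183, 179 and 98.0 CPM in nt and 252, 271 and 314 CPM on day 6 without transfection, and the groups did not overlap. It was lower in nt by 0.97 (SE 0.35, adjusted p = 0.0291, edgeR) on the log2 scale, as 1 of the 6 genes called (26.6% of all tested genes called). In Mock, Cxcl5 had 129, 137, 86.5, 74.5 and 194 CPM, all below the untransfected libraries. The value of Mock against day 6 was -1.02 (SE 0.36, adjusted p = 0.0225, 28.9% called), beside a median of -0.14 over all tested genes. Both calls were lost without the replicate block, with an adjusted p of 0.126 for nt and 0.0584 for Mock, and without the filter on low counts, at 0.374 and 0.114. The nt call was also lost without replicate 2 (0.0503) or 3 (0.467), and the Mock call without replicate 1 (0.0694) or 2 (0.243). Between Mock and nt, edgeR called 0 of the 6 (1.56% called, 0 at an unadjusted p under 0.05), as did DESeq2 and limma, and the Cxcl5 difference was -0.05 (SE 0.42).

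In the lists, nt against day 6 (26.6% of all tested genes called) had 1 lower of 4 in the IL-6 list that passed the filter (Jak1, -1.72, SE 0.45, adjusted p = 0.00219, edgeR) and 1 lower of 20 below it (Osmr, a receptor of the IL-6 family, -1.89, SE 0.67, adjusted p = 0.0263), with a median of -1.23 over the 4 beside -0.01 over all tested genes. In the NF-kB list 1 of 3 was lower, Vcam1 at -1.08 (SE 0.41, adjusted p = 0.0387). Of the 10 fibroblast markers tested, 3 were lower (Col1a1, Col1a2 and Thy1) and Lum was higher, and their part in the Cxcl5 difference was not tested.

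Ccl7 showed no such step in its values. It had 216, 165 and 286 CPM in nt, 258, 172, 231, 124.1 and 403 CPM in Mock, and 341, 72.3 and 143 CPM on day 6, ranges that overlap. The difference of nt from day 6 was 0.36 (SE 0.33, adjusted p = 0.431, edgeR) and that of Mock was 0.61 (SE 0.33, adjusted p = 0.148). Without replicate 1, whose untransfected library was the highest of day 6, the Ccl7 difference was 1.05 for nt (adjusted p = 0.0549) and 1.39 for Mock (adjusted p = 0.00809), and the latter then passed the test. Without replicate 3 both changed sign, to -0.21 for nt and -0.15 for Mock. Cxcl12 had 0, 29.9 and 32.7 CPM in nt, and Cxcl1 had 1 count. Ccl2 had no count in the 3 nt libraries, which allows a level of up to 12.0 CPM (3 counts over the group, counting error only), and 1 count in the 5 Mock libraries.

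Across the screen, each siRNA group was compared with nt. The test of any difference (44.8% of all tested genes called) called 3 of the 6 genes, Ccl7, Cxcl5 and Cxcl12. In single comparisons with 33 siRNAs each, Ccl7 was called with 1, Cxcl5 with 2 and Cxcl12 with 1. Ccl2, Cxcl1 and Il6 were called with 0. These 4 calls stand beside 2.57% called of all gene by siRNA tests. The targets themselves were too sparse to check the labels. Wdr5 had 7 counts in siWdr5 and 9 in nt, Tead2 had 2 and 2, and Bard1 had 0 and 2. Ep300 had 17 counts in the libraries labelled siEp300 and 3 in nt, and Brca1 had 4 in those labelled siBrca1 and 2 in nt. Of these 5 targets, Ep300, Brca1 and Tead2 thus had no fewer counts in their own libraries. Counts this low cannot show whether any of the knockdowns worked. By RT-qPCR earlier in reprogramming, the paper reports high knockdown efficiencies for Wdr5, Brca1 and Bard1. The siEp300, siBrca1 and siTead2 libraries are called labelled because of these counts, which do not show a failed knockdown.

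Cxcl5 ranged by siRNA from a mean of 41.9 CPM with siBptf to 293 CPM with siWdr5. The siBptf libraries did not overlap nt. Cxcl5 was not called there against nt, but was with all other transfected conditions as control. With siWdr5, which targets a core subunit of H3K4 methyltransferase complexes, Cxcl5 had 277, 299 and 304 CPM. All were above the nt libraries and within the range of untransfected day 6 cells, 252 to 314 CPM. The rise over nt was 1.06 (SE 0.35, adjusted p = 0.0146, edgeR, 27.2% of all tested genes called) on the log2 scale. In the libraries labelled siEp300, named for a histone acetyltransferase, Cxcl5 had 186, 142 and 525 CPM for replicates 1, 2 and 3. It was higher by 1.17 (SE 0.33, adjusted p = 0.0153, edgeR, 5.68% called) on the log2 scale, but without replicate 3 the value was -0.13 (adjusted p = 0.942). For siWdr5 the value without replicate 3 was 0.72 (adjusted p = 0.271), and without the replicate block neither call passed (adjusted p = 0.0977 for siWdr5 and 0.185 for siEp300).

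Against nt, Cxcl12 was called with siWdr5 and with no other siRNA. It had 119, 71.1 and 94.9 CPM there, above the 0, 29.9 and 32.7 CPM of nt without overlap, a rise of 1.95 (SE 0.73, adjusted p = 0.0335, edgeR) on the log2 scale. This mean was the highest of the 33 siRNA groups, whose median was 17.1 CPM, and it rests on 24 counts against 6. The next highest was sip53, with 147, 28.5 and 83.6 CPM and a difference from nt of 1.86 (SE 0.80, adjusted p = 0.243). Cxcl12 levels with siHdac1 did not overlap nt either, and were not called. With all other transfected conditions as control, Cxcl12 was called with siWdr5, with sip53 and in the libraries labelled siEp300. The call was lost without any one of the replicates, with an adjusted p between 0.0846 and 0.263, and without the replicate block at 0.0527. After adjustment over all 33 comparisons together the siWdr5 value was 0.165 for Cxcl12 and 0.0881 for Cxcl5.

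Ccl7 was lower in the libraries labelled siTead2, named for a transcription factor of the Hippo pathway. It had 46.0, 42.9 and 78.8 CPM there, the lowest mean of any condition, and 216, 165 and 286 CPM in nt without overlap. It fell by 1.93 (SE 0.45, adjusted p = 0.00808, edgeR, 1.03% of all tested genes called) on the log2 scale, and its adjusted p over all 33 comparisons was 0.00357. The size ranged from -2.05 to -1.56 over the alternatives, but the adjusted p was 0.227 without the replicate block and between 0.0576 and 0.207 without any one of the replicates. Without the filter on low counts none of the 4 siRNA calls passed, with adjusted p-values of 0.0631 for Ccl7, 0.126 for Cxcl5 in the libraries labelled siEp300, and 0.22 for Cxcl5 and 0.188 for Cxcl12 with siWdr5. With siWdr5, Ccl7 stood at 132, 171 and 266 CPM, a difference of -0.21 (SE 0.32, adjusted p = 0.655) from nt. The Ccl7 levels of siBptf, siKmt2d, siMtf1 and siTdrd7 did not overlap nt either, though none of these was called against nt. With nt and Mock as control, siBptf and siKmt2d were called beside siTead2.

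**Figure D3:**
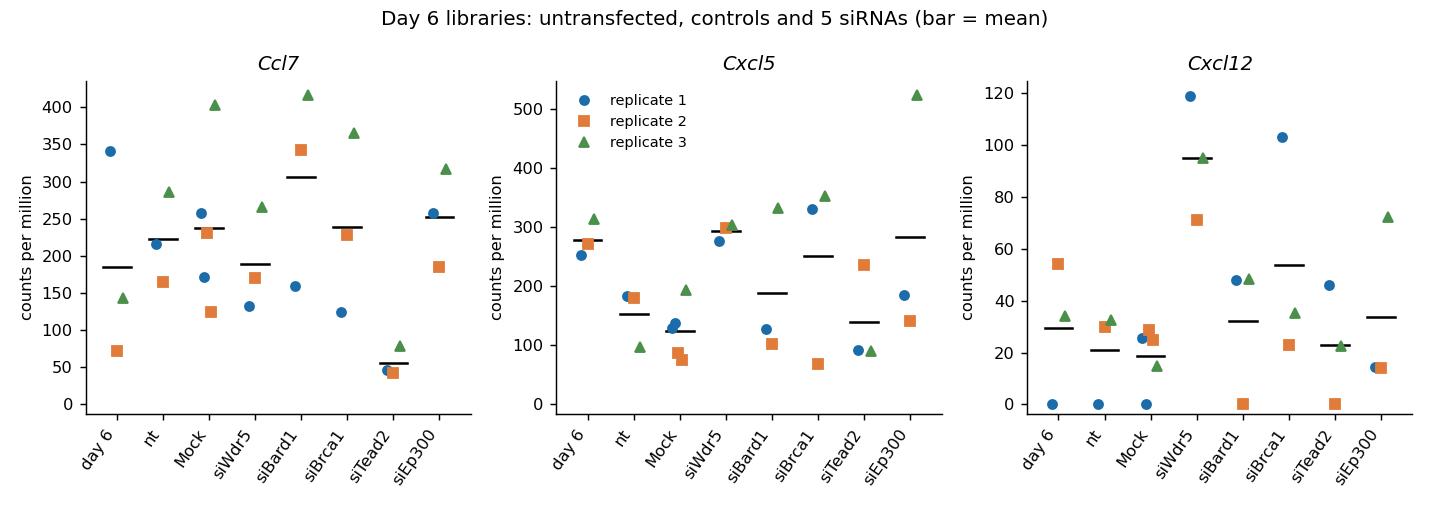
CPM (vertical axis) of Ccl7, Cxcl5 and Cxcl12 in day 6 libraries: untransfected, nt, Mock and 5 siRNAs; points are single libraries by replicate and bars are means. The mean of the libraries labelled siTead2 is lowest for Ccl7 (libraries from 42.9 to 78.8), the siWdr5 mean is highest for Cxcl12 (libraries from 71.1 to 119), and single libraries of other groups reach into both ranges, while 1 library labelled siEp300 stands at 525 for Cxcl5.

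The siRNAs against Bard1 and Brca1, partners in a ubiquitin ligase of DNA repair, gave no call against nt for any of the 6 genes by edgeR, DESeq2 or limma (10.3% of all tested genes called for siBard1 and 4.22% for siBrca1). At an unadjusted p under 0.05, edgeR had 1 gene with siBard1 and 2 in the libraries labelled siBrca1. Cxcl5 had 128, 103 and 333 CPM with siBard1 and 331, 68.4 and 353 CPM in those labelled siBrca1, both overlapping nt. The differences were 0.57 (SE 0.37, adjusted p = 0.35, edgeR) and 0.90 (SE 0.38, adjusted p = 0.184), and without replicate 3 the siBard1 value turned to -0.65. For Ccl7 they were 0.47 (SE 0.30, adjusted p = 0.329) and 0.14 (SE 0.33, adjusted p = 0.91), and without replicate 3 the siBrca1 value turned to -0.11. With all other transfected conditions as control in place of nt, Ccl7 was called higher with siBard1 (0.73, adjusted p = 0.00775) and Cxcl5 in the libraries labelled siBrca1 (0.95, adjusted p = 0.0297).

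Ccl2 had 112 counts in the 98 siRNA libraries, with a count in 61 of them, a level of 16.4 CPM by summed counts. It had no count in nt and none in 3 of the 33 siRNA groups. No siRNA passed the test (16 at an unadjusted p under 0.05 by edgeR, and 0 called by DESeq2 or limma). Cxcl1 had 43 counts in the siRNA libraries and Il6 had 4, in 4 different libraries. No siRNA was called for either gene by edgeR (0 at an unadjusted p under 0.05) or by DESeq2.

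**Figure D4:**
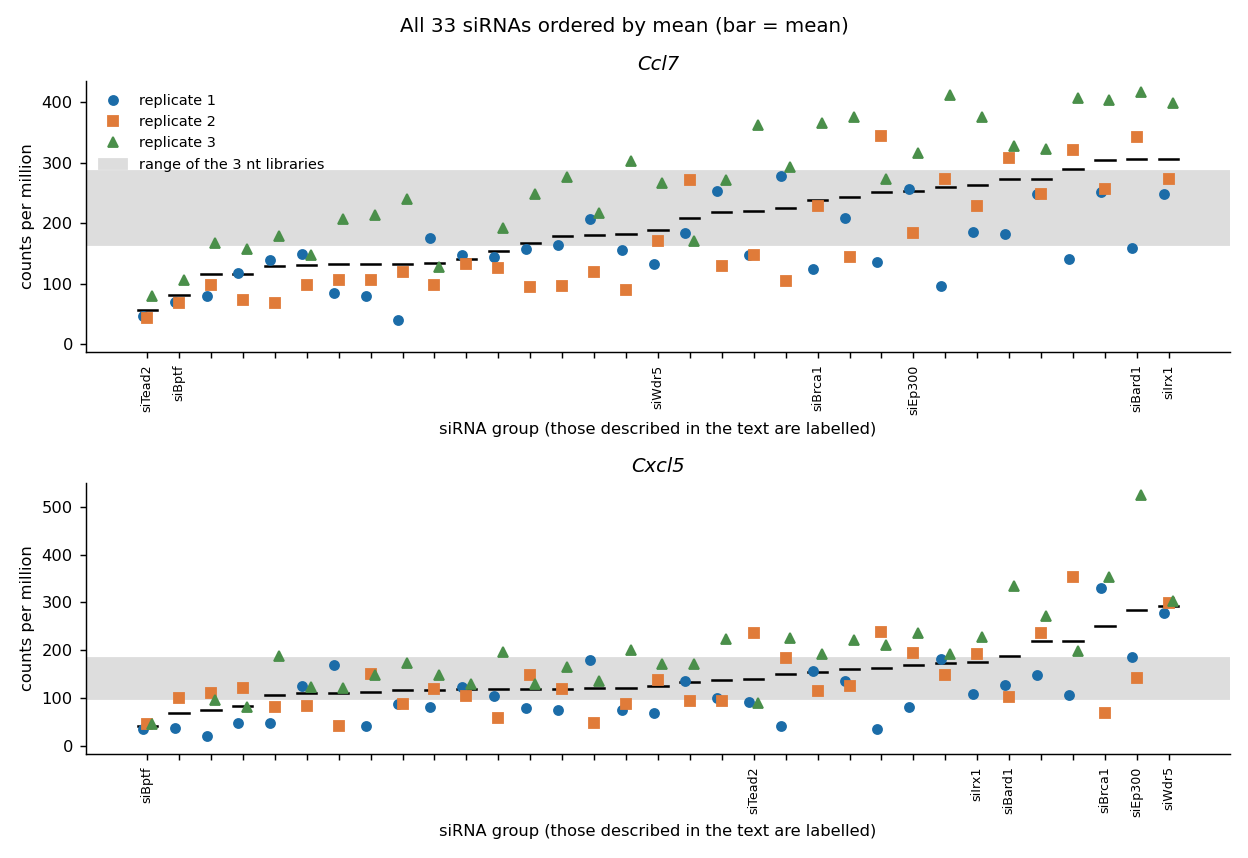
CPM (vertical axis) of Ccl7 and Cxcl5 in each of the 33 siRNA groups, ordered by mean, with the groups described in the text labelled; points are single libraries by replicate, bars are means and the grey band is the range of the 3 nt libraries. Ccl7 runs from a mean of 55.9 (siTead2) to 307 (siIrx1), and Cxcl5 from 41.9 (siBptf) to 293 (siWdr5).

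With siWdr5, some genes that receive or limit these signals were called, in a comparison that called 27.2% of all tested genes. In the IL-6 list 2 of 4 genes that passed the filter and 2 of 20 below it were higher, with a median log2 change of 1.59 over the 4 beside 0.00 over all tested genes. Il6st, the shared receptor chain, had 145, 185 and 161 CPM against 0, 29.9 and 24.5 CPM in nt, a rise of 2.92 (SE 0.66, adjusted p = 0.000238, edgeR) on the log2 scale. Jak1, the kinase it engages, had 343, 242 and 456 CPM against 50.0, 105 and 40.8 CPM, a rise of 2.51 (SE 0.41, adjusted p = 2.04e-07). Lifr, the LIF receptor, rose by 2.27 (SE 0.88, adjusted p = 0.0422) from 3 counts in nt.

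In the NF-kB list 1 of 3 that passed the filter and 1 of 23 below it were higher with siWdr5, beside 27.2% of all tested genes called. Vcam1, an adhesion molecule that leukocytes bind, had 357, 313 and 446 CPM against 66.6, 105 and 73.5 CPM, a rise of 2.21 (SE 0.36, adjusted p = 2.02e-07, edgeR). Ikbkb, a kinase that activates NF-kB, had 9 counts against 0 in nt. Its exact interval, taken as for Ccl2 and Cxcl12 above and covering counting error only, starts at 1.96-fold higher with siWdr5. Ccl8 had the same 9 counts against 0 and was the only other chemokine ligand of 24 called, though DESeq2 called 0. Of the mRNA decay factors, 1 of 5 that passed the filter and 1 of 5 below it were higher, with a median of 0.40 over the former: Zfp36l1 (2.61, SE 0.55, adjusted p = 7.02e-05) and its relative Zfp36l2 (1.48, SE 0.53, adjusted p = 0.0258). Csf1 rose by 2.14 (SE 0.50, adjusted p = 0.000438) and Kitl by 1.55 (SE 0.37, adjusted p = 0.000633), while Mif, a constitutive cytokine, fell by 1.49 (SE 0.46, adjusted p = 0.00821). Il1r1, the interleukin 1 receptor, was higher by 1.98 (SE 0.67, adjusted p = 0.0182), with 211, 28.4 and 114 CPM against 66.6, 0 and 24.5 CPM, which overlap. Of these genes named for siWdr5, Jak1, Vcam1 and Csf1 were also called higher with siBard1 (10.3% of all tested genes called). Jak1 and Zfp36l1 were called higher in the libraries labelled siBrca1 (4.22% called).

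**Figure D5:**
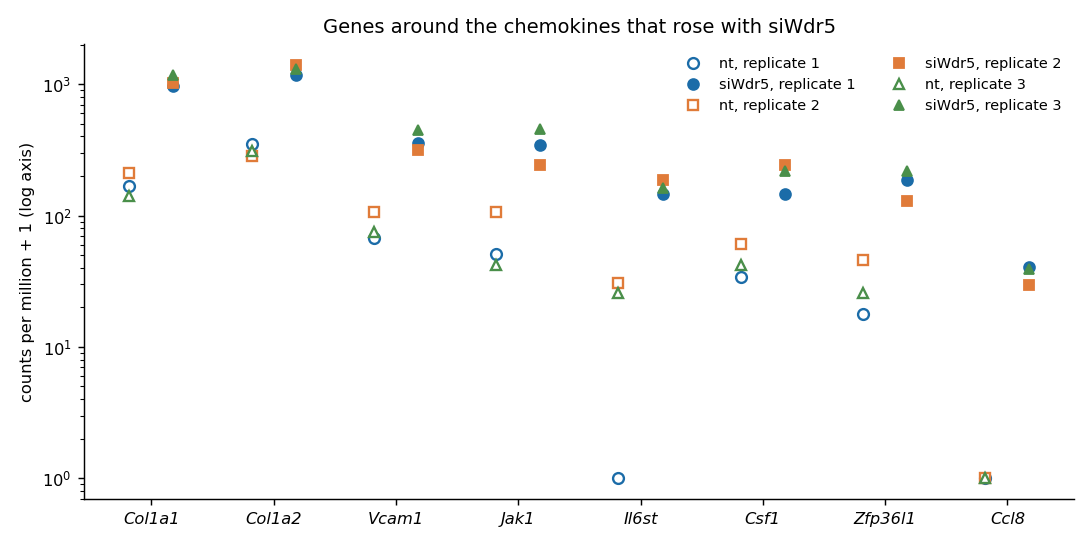
CPM plus 1 (vertical log axis) of 8 genes in the 3 nt libraries (open) and the 3 siWdr5 libraries (filled), by replicate. The 8 were picked from genes called higher with siWdr5, and each has all siWdr5 libraries above all nt libraries. Fbn1 and Il1r1, also called higher, overlap nt and are not shown. The share of all tested genes without overlap was not counted. Ccl8 has no count in nt.

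Fibroblast markers were higher in the same libraries. Of 10 that passed the filter, 7 rose with siWdr5 and none fell (27.2% of all tested genes called). Among the 7 was Col1a1, which rose by 2.67 (SE 0.27, adjusted p = 3.5e-17, edgeR) on the log2 scale. The summed level of the 13 markers was between 5177 and 6028 CPM with siWdr5 and between 1977 and 2948 CPM in nt, while the 8 epithelial markers summed to between 26.4 and 56.9 CPM and between 131 and 150 CPM. In the libraries labelled siTead2 the fibroblast sum was between 2602 and 3199 CPM and the epithelial sum between 215 and 253 CPM. In those labelled siEp300 the sums were between 2766 and 4117 CPM and between 85.8 and 184 CPM. With siBard1, 4 of the 10 fibroblast markers rose and none fell (10.3% of all tested genes called), with a fibroblast sum between 3273 and 4104 CPM. In the libraries labelled siBrca1, 2 rose and 1 fell (4.22% called), with a fibroblast sum between 2758 and 3802 CPM. The part of these markers in the Cxcl5, Cxcl12 and Ccl7 differences was not tested.

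Likeness of pattern was measured as Pearson's r over the 42 conditions, on log2 CPM of summed counts, as a description, since the conditions share pools and depth. Among the members Cxcl5 was most like Ccl7 (0.65), Cxcl12 (0.62) and Ccl2 (0.58), while the neighbours Ccl2 and Ccl7 had 0.47. Over all 3013 tested genes, the closest to Cxcl5 were Epb41l3 (0.84), Hspa4l (0.82) and Gpx1 (0.81), and the closest to Ccl7 was S100a4 (0.77). No gene reached 0.7 for Ccl2 or Cxcl12.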

How the data were processed

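Barcoded CEL-Seq2 libraries were sequenced in 3 pools, 1 per replicate number, each with 1 library per condition and 2 of Mock. Per the study's methods, the authors mapped reads to mm10 with Bowtie2, corrected them by unique molecular identifier with the CEL-Seq2 pipeline and matched them to GENCODE vM13. They deposited counts per gene symbol and, for libraries that passed their quality filter, log2 CPM with the batch regressed out. The deposited counts give 3' ends, so levels were compared within a gene only. Here counts of the 127 libraries in both tables were fitted with edgeR 4.0.16 (R 4.3.3) by the quasi-likelihood test, with TMM scaling, filterByExpr by condition (3013 genes), a term per condition and a replicate block. A second fit with the same scaling added 126 genes under the filter. P-values were Benjamini-Hochberg adjusted over all genes of a fit, at a threshold of 0.05, and tests are two-sided. The block follows the pools: deviations from the group means had a median correlation of 0.0532 within and -0.0319 between replicate numbers. Subtracting the group means ties the value between numbers to the value within, so they are not separate checks. No 2 of 131 replicate pairs agreed within sampling noise (chi-square per gene between 1.3 and 5.69). Alternatives were DESeq2 1.42.0, RLE factors, limma 3.58.1 on the deposited log2 values, other filters, controls and library sets. The code was tested on simulated data. The 6 genes and the gene lists were chosen with earlier results of these data known. Named genes are the 6, and from each list up to 3 called genes with the largest change in each direction in day 6 against day 0, nt against day 6 and siWdr5 against nt. Other genes were named after their values were seen.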

Additional observations from a re-analysis of the deposited data

Results flagged for a closer look

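Ccl2 in Mock was flagged because 1 library of 5 stood apart from the others: it had 28.8 CPM, from 1 count, and the other 4 had none. Cxcl1 in Mock was flagged for the same reason, with 28.8 CPM from 1 count in the same library of replicate 2. In all, 2 of 5 groups tested were flagged. The 95% critical value of Dixon's test flags about 1 in 20 groups by chance, a rate that counts of 0 and 1 need not follow.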

How the results depend on the processing

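Of 37 calls for the 6 genes, 18 kept their direction and their side of the threshold in every alternative run. Of 378 alternative values for these calls 298 did so, 79 kept the direction but missed the threshold, and 1 reversed. The limits are few counts for Ccl2, Cxcl12, Cxcl1 and Il6, 3 libraries a group, 3 pools of unequal depth, and nt libraries shared by all siRNA comparisons. The cause of each lost call was not tested.

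Without the replicate block, 0 of the 6 genes were called from day 1 to day 2 (1 with it) and 0 in nt or Mock against day 6 (1 each with it), and the siRNAs called numbered 0 for Ccl7, 0 for Cxcl5 and 0 for Cxcl12 (1, 2 and 1 with it). With limma on the deposited log2 values these counts were all 0 as well. With no filter beyond 1 count they were 2 for days 4 to 6 against days 1 to 3 (4 with the filter), 0 for nt and Mock against day 6, and 0 for the siRNAs of all 3 genes. From day 2 to day 3, where edgeR called 0, RLE factors, DESeq2 and the 2 days fitted alone each called 1, and from day 5 to day 6 the days fitted alone called 1. With nt and Mock as control, 3 siRNAs were called for Ccl7. With all other transfected conditions as control 3 were called for Ccl7, 4 for Cxcl5, 3 for Cxcl12 and 1 for Cxcl1. DESeq2 called 1 siRNA for Cxcl5, and adjustment over all 33 siRNAs left 1 for Cxcl5 and 0 for Cxcl12.

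When each replicate was left out in turn, the filter on low counts was run again on the remaining libraries (2561 to 3919 genes over both fits), so the gene set changed too. The genes called ranged from 0 to 1 for day 2 against day 1, 0 to 1 for day 3 against day 2, 0 to 3 for day 4 against day 3, 1 to 3 for late against early days, 0 to 1 for nt and for Mock against day 6, and 1 to 3 for any siRNA. The siRNAs called ranged from 0 to 2 for Cxcl5 and were 0 each time for Ccl7 and Cxcl12. The log2 difference changed sign for 6 comparisons in this range, which ran from -0.13 (without replicate 3) to 1.58 for Cxcl5 in the libraries labelled siEp300, -0.65 to 0.97 for Cxcl5 with siBard1, -0.11 to 0.35 for Ccl7 in those labelled siBrca1, -0.0712 to 1.91 for Cxcl12 there, -0.21 to 1.05 for Ccl7 in nt against day 6, and -0.15 to 1.39 for Ccl7 in Mock against day 6. With all other transfected conditions as control, the Ccl7 difference with siWdr5 turned to 0.0222. Of these, Cxcl5 in the libraries labelled siEp300 had been called.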
